A study of Mus musculus with 27 samples.

Results

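The genes that write, copy and remove cytosine methylation were followed in mouse cardiac fibroblasts and whole hearts from birth to old age. They were chosen by name, as the rows with the symbols Dnmt1, Dnmt3a, Dnmt3b, Uhrf1, Hells, Tet1, Tet2 and Tet3 in the raw counts of both tissues, which gave 8 of 22855 genes, and all 8 passed the filter on low counts in each tissue. RNA-Seq had been done on hearts of C57Bl/6 mice and on fibroblasts sorted from such hearts by flow cytometry for PDGFRα, at 5 ages. These were postnatal day 1 (P1), then 4 and 14 weeks, and lastly 1 and 1.5 years. No sample label names an engineered allele, an agent or an injury, and the sex was not given. The text on the design of the series speaks of myocardial infarction, and whether any animal had one cannot be told from the labels. The paper describes the animals for RNA-Seq by age and reports no experiment with an infarct or injury. There were 3 fibroblast samples at P1 and at 4 weeks, 2 at each of the 3 later ages, and 3 hearts at every age, 27 samples in all. The fibroblasts of P1 and 4 weeks carry replicate numbers 1 to 3, and those of the later ages 4 to 6. Fibroblast comparisons across that step, as from 4 to 14 weeks or from P1 to 1.5 years, cannot tell age apart from a difference between these sets. Hearts carry numbers 1 to 3 at every age, so from 14 weeks on fibroblasts of the later set are compared with them. The p-values measure the spread between these samples. Because the sort selects on a surface protein, the fibroblasts are the PDGFRα-positive cells of the heart, and a whole heart mixes every cell type.

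DNA methyltransferases place a methyl group on cytosines in CpG dinucleotides. Dnmt1 is the maintenance enzyme, which restores the mark on newly made strands behind the replication fork. Uhrf1 recognises the half-methylated sites and recruits Dnmt1, and Hells is a chromatin remodeller that opens heterochromatin to the methyltransferases. Dnmt3a and Dnmt3b methylate DNA de novo. The TET dioxygenases Tet1, Tet2 and Tet3 oxidise 5-methylcytosine to 5-hydroxymethylcytosine, a form that is abundant in cells that no longer divide, and so start its removal. Dnmt1, Uhrf1 and Hells are best known from dividing cells, and the heart leaves its phase of cell division in the first weeks of life.

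Each library held between 54615898 and 76758831 counts in fibroblasts and between 46091271 and 67984404 in hearts, and no pair of samples of a group had identical counts. The labels held against markers, as Pdgfra averaged between 845 and 1288 CPM (counts scaled to library size) at the 5 ages in fibroblasts and between 32.5 and 49.0 in hearts. Summed over 9 cardiomyocyte genes, the fibroblast samples held between 744 and 820 CPM at P1 and between 17.4 and 201 at the older ages, against 40511 to 102960 in hearts. Within fibroblasts, 5 of those 9 genes were lower at 4 weeks than at P1 and 5 of 9 at 1.5 years, and at 1.5 years up to 2 of the 9 were at 0 counts in a sample. Summed over 9 endothelial genes, the fibroblasts held between 450 and 687 CPM at P1 and between 329.5 and 2011 later, with the highest sum in 4-week replicate 3. Hearts held between 613 and 1286 CPM, so the sort did not lower this sum in every sample. At 14 weeks the fibroblasts, at 1328 and 1614 CPM, lay above the hearts, at 751 to 808. The 8 leukocyte genes summed to between 47.6 and 63.4 CPM in P1 hearts and to between 262 and 576 in older hearts. In fibroblasts they summed to between 99.1 and 194 CPM at P1, 265 and 432 at 4 weeks, and 19.7 and 85.6 at the 3 later ages, and the 6 genes of mural cells to between 73.9 and 463 in all. The part of these other cells in the results was not tested.

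The members lie on 8 chromosomes. On GRCm38, the mm10 assembly, the annotation places Dnmt1 at chr9:20907209-20959888, Dnmt3a at chr12:3806007-3914443, Dnmt3b at chr2:153649450-153687730, Uhrf1 at chr17:56303321-56323486, Hells at chr19:38930915-38971051, Tet1 at chr10:62804570-62908996, Tet2 at chr3:133463679-133545139 and Tet3 at chr6:83362373-83459084. All are protein coding, and their exonic length runs from 4259 bases in Uhrf1 to 16870 in Tet2. Antisense transcripts share 133 exonic bases with Dnmt3a and 43 with Tet2, and whether reads were counted by strand was not given in the sources used here.

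Promoters are shown for Dnmt1, Uhrf1 and Hells, as the members with an E2F word, a motif best known from genes of DNA replication. RefSeq promoters (GRCm38.p6, 250 bases before to 50 after each start) were found for all 8 members, 13 windows in total. They were searched on both strands for 4 kinds of motif, the E2F words TTTCCCGC, TTTCGCGC, TTTGGCGC and TTTGCCGC, CCAAT, the cell cycle words TTTGAA and TTTAAA, and the SP1 word GGGCGG. An E2F word stood in 3 of the 13 windows, 1 each of Dnmt1, Uhrf1 and Hells, and in 744 of all 32851 windows of that length (2.265%). The other 2 Dnmt1 windows and the other Uhrf1 window held none. Over all windows, CCAAT stood in 37.408%, the cell cycle words in 27.585% and the SP1 word in 35.658%. With windows numbered by start, the members with CCAAT were Dnmt1 (windows 1 and 3), Uhrf1 (windows 1 and 2) and Tet3. Those with a cell cycle word were Dnmt1 (windows 1 and 2), Dnmt3b and Uhrf1 (window 2). Whether CCAAT or the cell cycle words were more frequent in the member windows than in all windows was not tested. The SP1 word was found in all 8 members, a count per gene and not per window. The first and second Dnmt1 windows held none. In the sequences, given 5′ to 3′ on the strand of the gene, capitals mark the E2F word or CCAAT. The first is the stretch before the second start of Uhrf1, chr17:56304063-56304312 on the plus strand, with the E2F word at -185 and CCAAT at -150 and -107 from the start. The others are 30-base windows on an E2F word, in Dnmt1 at chr9:20952824-20952853 and chr9:20952574-20952603 on the minus strand and in Hells at chr19:38930917-38930946 on the plus strand. From the third Dnmt1 start these words are at -219 and, after the start, at 34, and in Hells at -62. All of them lie in annotated exons, and the E2F word of Uhrf1 does not.
Uhrf1: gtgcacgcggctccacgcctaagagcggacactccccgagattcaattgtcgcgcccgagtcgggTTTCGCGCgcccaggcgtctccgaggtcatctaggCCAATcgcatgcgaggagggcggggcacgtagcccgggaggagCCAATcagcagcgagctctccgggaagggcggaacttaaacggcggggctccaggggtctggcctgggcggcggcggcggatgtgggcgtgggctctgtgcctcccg
Dnmt1, far: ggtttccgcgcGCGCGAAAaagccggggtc
Dnmt1, near: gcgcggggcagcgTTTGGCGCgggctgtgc
Hells: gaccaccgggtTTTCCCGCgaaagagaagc
In the first Dnmt1 stretch the word is on the opposite strand, so it reads as its reverse complement. A match describes letters and does not show binding. The number of CpG dinucleotides, the substrate of the enzymes themselves, ran from 2 at the first Dnmt1 start to 57 in Tet2 over the 13 windows, against a median of 7 over all promoters. It was 33, 33 and 34 in the windows with an E2F word, and 12 at the second Dnmt1 start and the first Uhrf1 start.

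Across the 5 ages, 7 of the 8 genes changed in fibroblasts and 6 of the 8 in hearts (edgeR quasi-likelihood test, Benjamini-Hochberg adjusted p under 0.05), where 19.9% of all genes tested did so in fibroblasts and 34.3% in hearts. In fibroblasts the exception was Dnmt3b (adjusted p = 0.557). In hearts, Dnmt3b (adjusted p = 0.269) and Hells (adjusted p = 0.0501) did not pass. At 1.5 years 6 of the 8 were lower than at P1 in fibroblasts, where 6.46% of all genes were lower, and 6 of the 8 in hearts, where 16.3% were. No member was higher at 1.5 years than at P1 in either tissue, where 9.86% of all genes were higher in fibroblasts and 15.6% in hearts. The median log2 fold change over the 8 members was -1.82 in fibroblasts and -2.84 in hearts, beside medians over all genes of 0 and -0.15. Over genes of more than 4000 exonic bases, as all 8 members are, the median in hearts was -0.42 among those averaging 1 CPM or more. Dnmt3a and the TET genes, at 15457 bases or more, lie far above that cut, and no median was taken for genes of such length. In bulk samples, fewer cells of a type and less RNA per cell cannot be told apart. Within the first month, 3 of the 8 were lower at 4 weeks than at P1 in fibroblasts, against 6.2% of all genes, and 1 of the 8 in hearts, against 6.1%.

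**Figure D1:**
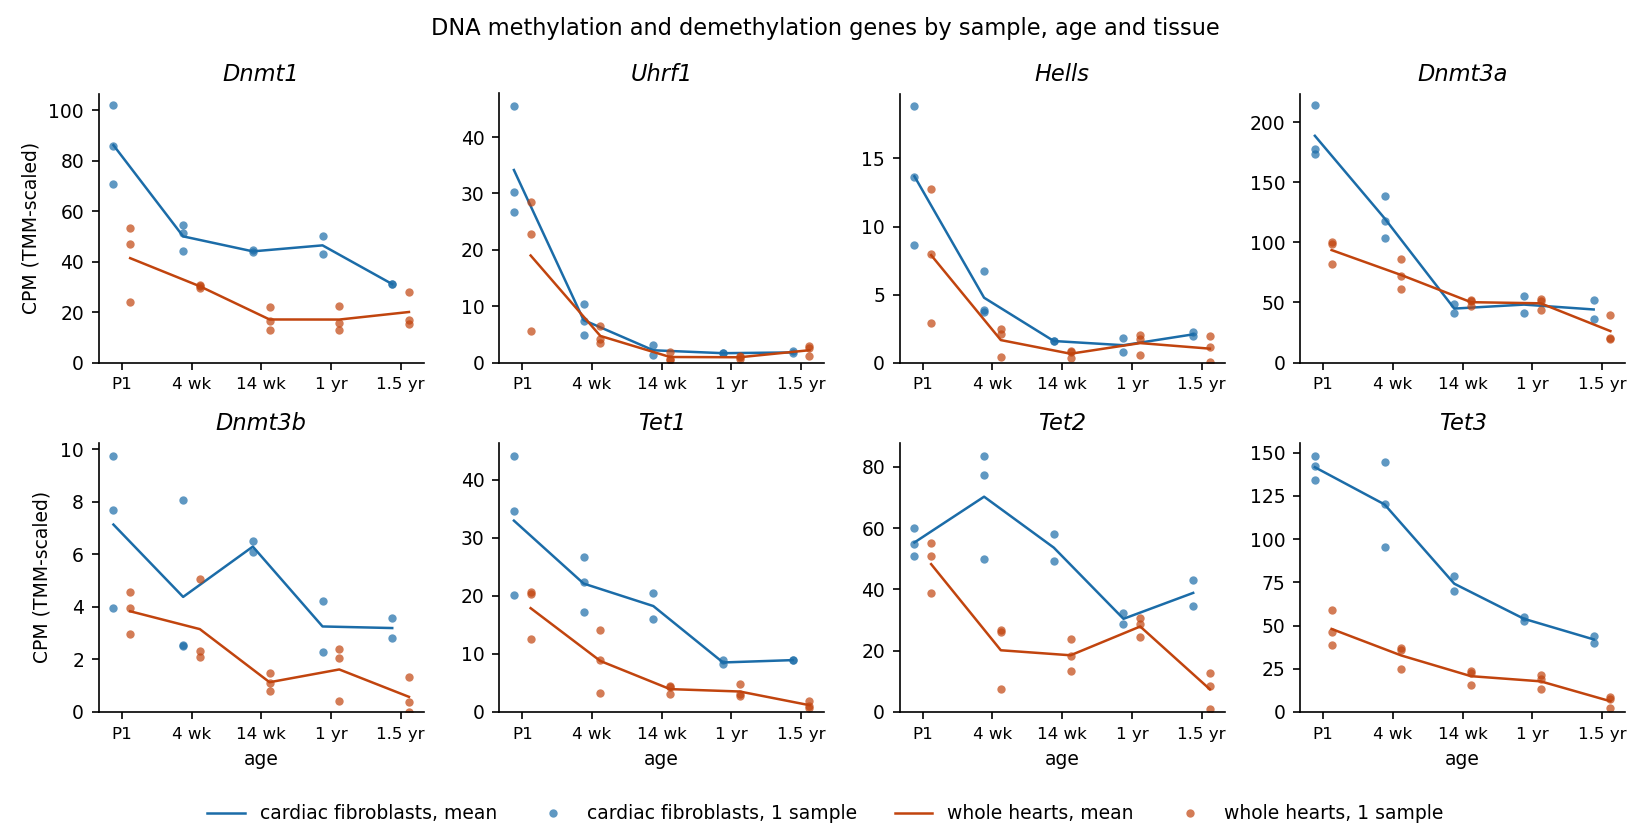
Each panel plots 1 gene, with age on the x axis and TMM-scaled CPM on the y axis, a point for each sample and a line through the means of the cardiac fibroblasts and of the whole hearts. Scaling was done within each tissue, so the curves are read along age. Uhrf1 is above 26 CPM in the 3 P1 fibroblast samples and at or below 3.06 CPM from 14 weeks on.

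Among the maintenance genes, Uhrf1 had the largest fold change of the 8 members in fibroblasts. Its level in P1 fibroblasts was 45.5, 26.8 and 30.2 CPM, and at 4 weeks 7.38, 10.4 and 4.87 CPM. It was 3.06 and 1.29 CPM at 14 weeks, 1.66 in both samples at 1 year, and 1.63 and 1.96 CPM at 1.5 years. The P1, the 4-week and the later samples formed 3 ranges that did not overlap. Uhrf1 fell by 2.18 on the log2 scale between P1 and 4 weeks (SE 0.402, adjusted p = 0.0025 by edgeR), which is 4.53-fold lower. At 1.5 years it was 19.01-fold lower than at P1 (log2 fold change -4.25, SE 0.526, adjusted p = 0.000103 by edgeR). Both calls held in every alternative setting that could be fitted and without any 1 of the samples compared.

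In whole hearts, Uhrf1 stood at 5.57, 22.9 and 28.5 CPM at P1 and at 6.45, 4.24 and 3.48 CPM at 4 weeks. It was 0.712, 1.82 and 0.415 CPM at 14 weeks, 0.649, 1.05 and 1.12 CPM at 1 year, and 2.89, 1.16 and 2.52 CPM at 1.5 years. P1 replicate 1 lay within the 4-week range, and all hearts from 14 weeks on lay below those of 4 weeks. Uhrf1 fell 4.02-fold by 4 weeks (log2 fold change -2.01, SE 0.618, adjusted p = 0.0317 by edgeR) and was 8.67-fold lower at 1.5 years than at P1 (log2 fold change -3.12, SE 0.647, adjusted p = 0.00149). The 4-week call was lost without P1 replicate 2, P1 replicate 3, 4-week replicate 2 or 4-week replicate 3, with adjusted p up to 0.166, while the log2 fold change stayed between -2.44 and -1.59.

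Dnmt1 was lower at both 4 weeks and 1.5 years in fibroblasts, and at 1.5 years in hearts. In fibroblasts it was 102, 85.7 and 70.6 CPM at P1, and 44.1, 51.5 and 54.4 CPM at 4 weeks. It was 43.7 and 44.5 CPM at 14 weeks, 49.97 and 42.9 CPM at 1 year, and 31.0 and 31.2 CPM at 1.5 years. All P1 samples lay above every older sample, and the 1.5-year samples lay below all others. Dnmt1 was 1.72-fold lower at 4 weeks (log2 fold change -0.78, SE 0.157, adjusted p = 0.00423 by edgeR) and 2.77-fold lower at 1.5 years than at P1 (log2 fold change -1.47, SE 0.184, adjusted p = 0.000112).

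In hearts Dnmt1 was 24.0, 46.8 and 53.3 CPM at P1, 30.4, 29.7 and 30.6 CPM at 4 weeks, and 22.1, 16.4 and 12.8 CPM at 14 weeks. It was 12.8, 15.7 and 22.6 CPM at 1 year and 15.4, 27.9 and 16.8 CPM at 1.5 years. P1 replicate 1 was low, beneath all 4-week hearts and beneath 1.5-year replicate 2. The 4-week difference did not pass (log2 fold change -0.45, adjusted p = 0.351 by edgeR), and the 1.5-year one did, at 2.06-fold lower than P1 (log2 fold change -1.05, SE 0.311, adjusted p = 0.0171). That call was lost without P1 replicate 2 or 3 or 1.5-year replicate 1 or 3 (adjusted p up to 0.104), and the estimate moved between -0.77 and -1.36.

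Per kilobase of exon, Hells had the lowest mean of the maintenance genes at every age in both tissues. In fibroblasts it was 13.6, 8.63 and 18.8 CPM at P1, 3.84, 3.73 and 6.73 CPM at 4 weeks, and between 0.758 and 2.21 CPM in the 6 later samples, 3 ranges without overlap. Its 1.5-year level was 6.60-fold below P1 (log2 fold change -2.72, SE 0.671, adjusted p = 0.0138 by edgeR), a call lost without 1.5-year replicate 4 or replicate 5 (adjusted p up to 0.102). The 4-week difference in fibroblasts was -1.52 on the log2 scale and did not pass (adjusted p = 0.0834), although DESeq2 and a filter of at least 10 counts in every sample called it. In hearts, Hells was 2.92, 8.0 and 12.8 CPM at P1 and no higher than 2.46 CPM in any older sample. There the log2 fold change was -2.26 at 4 weeks (adjusted p = 0.168) and -2.95 at 1.5 years (adjusted p = 0.0531), and neither passed. Counts were few, with as little as 1 count in a 1.5-year heart.

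**Figure D2:**
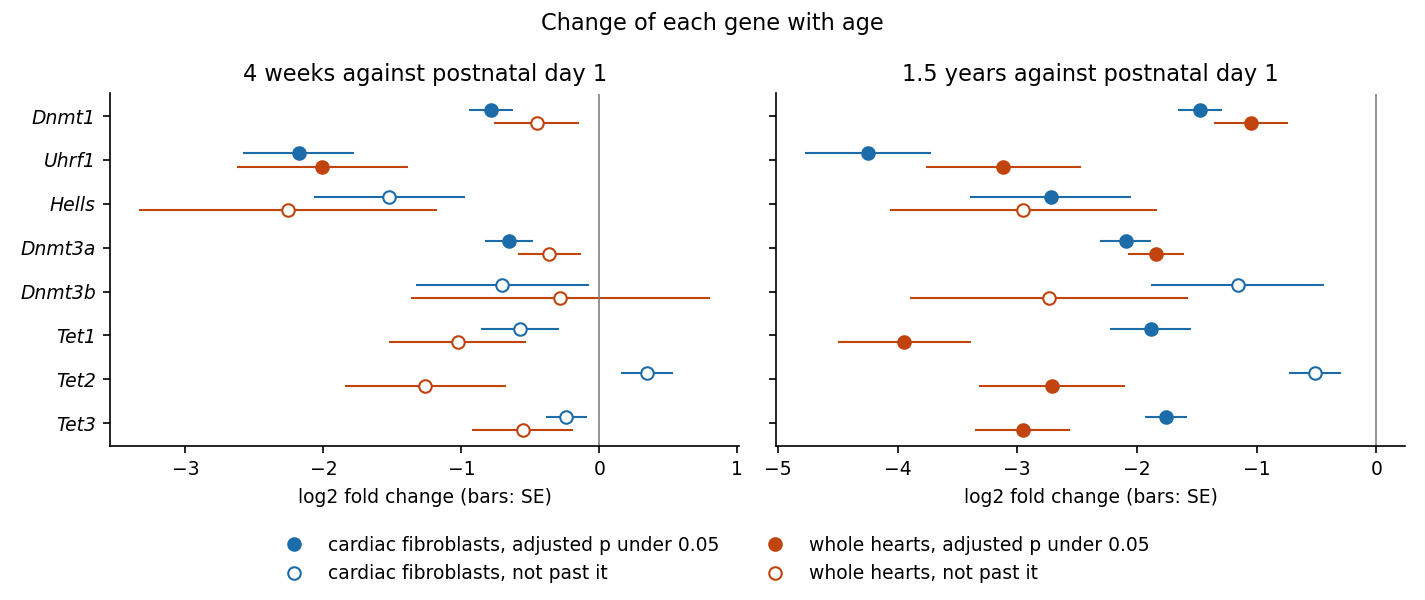
Log2 fold change of each gene at 4 weeks and at 1.5 years against postnatal day 1 (x axis, with bars for 1 SE), for cardiac fibroblasts and whole hearts, with filled points for an adjusted p under 0.05. At 1.5 years all 8 points lie below 0 in both tissues, from -4.25 for Uhrf1 to -0.51 for Tet2 in fibroblasts and from -3.94 for Tet1 to -1.05 for Dnmt1 in hearts.

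Dnmt3a was the more abundant of the de novo enzymes and its level in fibroblasts went down in 2 steps. It was 174, 178 and 214 CPM at P1, and 118, 104 and 138 CPM at 4 weeks. At 14 weeks it was 48.5 and 41.2 CPM, at 1 year 55.1 and 41.3 CPM, and at 1.5 years 51.8 and 36.5 CPM. The P1, 4-week and later samples did not overlap, and the 3 later ages overlapped each other. Dnmt3a fell by 0.65 on the log2 scale from P1 to 4 weeks (SE 0.175, adjusted p = 0.0228 by edgeR) and by 1.42 from 4 to 14 weeks (SE 0.205, adjusted p = 0.00291), where 2.08% of all genes were lower. At 1.5 years it was 4.27-fold below P1 (log2 fold change -2.09, SE 0.211, adjusted p = 1.78e-05). The first step was lost without P1 replicate 3, 4-week replicate 1 or 4-week replicate 2 (adjusted p up to 0.0884). The second was lost without 14-week replicate 6 (adjusted p = 0.0626).

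In hearts, Dnmt3a was lowest in the oldest animals. It was 81.9, 100.1 and 98.6 CPM at P1, 85.7, 60.9 and 71.7 CPM at 4 weeks, and 52.0, 51.3 and 47.3 CPM at 14 weeks. At 1 year it was 43.6, 52.7 and 51.4 CPM, and at 1.5 years 39.2, 20.0 and 19.3 CPM. The 4-week range overlapped that of P1, and the 1.5-year hearts lay below all others, with replicate 1 highest of the 3. At 4 weeks the log2 fold change was -0.36 (adjusted p = 0.302 by edgeR), and at 1.5 years Dnmt3a was 3.58-fold below P1 (log2 fold change -1.84, SE 0.234, adjusted p = 1.76e-05). Between 14 weeks and 1.5 years it fell by 0.94 on the log2 scale (SE 0.229, adjusted p = 0.0134), a call lost without 1.5-year replicate 2 or 3 (adjusted p up to 0.0645).

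Dnmt3b was low throughout. In fibroblasts it ranged from 2.29 to 9.75 CPM with overlapping ages, and the 14-week samples at 6.49 and 6.08 CPM were within the P1 range of 3.95 to 9.75 CPM. Its change did not pass at 4 weeks (log2 fold change -0.70, adjusted p = 0.503 by edgeR) or at 1.5 years (-1.16, adjusted p = 0.313). In hearts it was 2.98, 4.57 and 3.94 CPM at P1, 2.10, 2.30 and 5.04 CPM at 4 weeks and no higher than 2.40 CPM later, with 0 counts in 1.5-year replicate 3. The 1.5-year log2 fold change in hearts was -2.73 (SE 1.16, adjusted p = 0.0833), which did not pass, and -0.28 at 4 weeks (adjusted p = 0.907). Of the summed Dnmt3a and Dnmt3b counts per kilobase of exon, Dnmt3a made up 88.8% ± 5.00 (SD, n = 3) in P1 fibroblasts and 88.3% ± 1.18 (SD, n = 3) in P1 hearts. At the older ages the share was 81.2% ± 9.61 (SD, n = 9) in fibroblasts and 91.1% ± 6.05 (SD, n = 12) in hearts. The older ages did not differ from P1 by the test (exact permutation test, two-sided, p = 0.218 in fibroblasts and 0.466 in hearts).

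All 3 TET genes were lower at 1.5 years than at P1 in hearts, and Tet1 and Tet3 in fibroblasts. In fibroblasts Tet3 stood at 134, 142 and 148 CPM at P1 and 120.1, 95.4 and 145 CPM at 4 weeks. It was 78.7 and 69.7 CPM at 14 weeks, 55.0 and 52.8 CPM at 1 year, and 44.2 and 39.7 CPM at 1.5 years. P1 and 4 weeks overlapped, and the 3 later ages formed successively lower ranges. The difference was -0.24 on the log2 scale at 4 weeks (adjusted p = 0.298 by edgeR), and Tet3 fell by 0.69 from 4 to 14 weeks (SE 0.168, adjusted p = 0.0394) and by 0.82 from 14 weeks to 1.5 years (SE 0.182, adjusted p = 0.0341). The call from 14 weeks to 1.5 years, where 0.816% of all genes were lower, was lost without any of the 4 samples (adjusted p between 0.124 and 0.316). That from 4 to 14 weeks was lost without 4-week replicate 1 or 3 or either 14-week sample (adjusted p up to 0.388). Over the whole span Tet3 was 3.37-fold lower at 1.5 years than at P1 (log2 fold change -1.75, SE 0.176, adjusted p = 1.71e-05), and this held in all alternatives.

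In hearts Tet3 was 38.8, 58.9 and 46.3 CPM at P1, 36.8, 25.1 and 36.1 CPM at 4 weeks, and 22.6, 23.6 and 15.9 CPM at 14 weeks. It was 13.1, 21.1 and 18.9 CPM at 1 year and 8.81, 7.61 and 2.16 CPM at 1.5 years. The P1 hearts lay above all older ones and the 1.5-year hearts below all others, with replicate 3 the lowest. Tet3 was 7.76-fold lower at 1.5 years than at P1 (log2 fold change -2.96, SE 0.396, adjusted p = 2.89e-05 by edgeR), and its 4-week difference did not pass (-0.56, adjusted p = 0.333). From 14 weeks to 1.5 years Tet3 fell by 1.74 on the log2 scale (SE 0.380, adjusted p = 0.00724), a step at which 7.86% of all genes were lower.

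Tet1 in fibroblasts was 44.2, 20.1 and 34.6 CPM at P1, and 17.3, 22.4 and 26.7 CPM at 4 weeks. It was 16.0 and 20.5 CPM at 14 weeks, 8.19 and 8.87 CPM at 1 year, and 8.97 and 8.90 CPM at 1.5 years. The first 3 ages overlapped, and the 4 samples of 1 year and 1.5 years were the lowest. Tet1 was 3.69-fold lower at 1.5 years than at P1 (log2 fold change -1.88, SE 0.340, adjusted p = 0.00185 by edgeR), and its 4-week difference was -0.58 (adjusted p = 0.198).

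In hearts Tet1 was 12.6, 20.4 and 20.7 CPM at P1, 14.2, 3.32 and 8.87 CPM at 4 weeks and 3.06, 4.44 and 4.31 CPM at 14 weeks. At 1 year it was 3.01, 4.79 and 2.77 CPM, and at 1.5 years 1.93, 0.969 and 0.593 CPM. The 1.5-year hearts lay below all others, and 4-week replicate 2 stood near the adult hearts. Tet1 was 15.4-fold lower at 1.5 years than at P1 (log2 fold change -3.94, SE 0.558, adjusted p = 4.98e-05 by edgeR), the largest fold change of the 8 genes in hearts. From 14 weeks to 1.5 years it fell by 1.76 (SE 0.517, adjusted p = 0.0337), a call that was lost without any of the 14-week hearts or without 1.5-year replicate 2 or 3 (adjusted p up to 0.122).

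For Tet2, fibroblasts held 60.1, 51.0 and 54.9 CPM at P1, 83.7, 49.8 and 77.3 CPM at 4 weeks, and 49.1 and 58.2 CPM at 14 weeks. The levels were 28.7 and 32.2 CPM at 1 year and 34.5 and 43.2 CPM at 1.5 years, below those of every younger sample. Tet2 changed among the 5 ages (adjusted p = 0.00975 by edgeR), but not in either comparison with P1, where the log2 fold change was 0.34 at 4 weeks (SE 0.191, adjusted p = 0.242) and -0.51 at 1.5 years (SE 0.217, adjusted p = 0.143). Without 1-year replicate 4 the 5-age call was lost (adjusted p = 0.0508). In hearts Tet2 was 38.8, 50.9 and 55.0 CPM at P1, 26.0, 7.52 and 26.9 CPM at 4 weeks, 13.4, 23.7 and 18.3 CPM at 14 weeks, 24.4, 28.6 and 30.7 CPM at 1 year and 12.6, 8.61 and 0.988 CPM at 1.5 years. All P1 hearts lay above all older hearts, and 1.5-year replicate 3 was the lowest of the 15. Its change among the 5 ages passed in hearts (adjusted p = 0.0217 by edgeR) but not without P1 replicate 2 or replicate 3 (adjusted p up to 0.063). Tet2 was 6.54-fold lower at 1.5 years than at P1 in hearts (log2 fold change -2.71, SE 0.612, adjusted p = 0.00282 by edgeR), and the 4-week difference did not pass (-1.26, adjusted p = 0.153).

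In the old hearts the change of a gene went with its length. Over the 12976 genes averaging 1 CPM or more, exonic length and the 1.5-year change since 14 weeks (log2) had a Spearman rho of -0.509, genes not being independent replicates. The median change was -0.33 in genes over 4000 bases and 0.30 in shorter ones. All 8 members are over 4000 bases, and Dnmt3a, Tet1, Tet2 and Tet3 have at least 15457. From P1 to 1.5 years the rho was -0.391 in hearts and -0.0244 in fibroblasts. In hearts the median change over that span was -0.42 in genes over 4000 bases and 0.35 in shorter ones. With an offset that removes the trend of counts with length, the 14-week to 1.5-year change in hearts was -0.26 for Dnmt3a (adjusted p = 0.334) and -1.14 for Tet1 (adjusted p = 0.118), so those calls were lost, while that of Tet3 held at -1.07. In the comparison of 1.5-year with P1 hearts the offset left 5 of the 6 calls, without Dnmt1 (-0.74, adjusted p = 0.08). The log2 fold changes it left were -1.09 for Dnmt3a, -3.26 for Tet1, -2.03 for Tet2 and -2.22 for Tet3, each nearer to 0 than without it. Within fibroblasts the offset ended the call of Dnmt3a at 4 weeks (adjusted p = 0.0615) and of Tet3 from 14 weeks to 1.5 years (adjusted p = 0.135).

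Other single steps held few calls. No member passed between 14 weeks and 1 year in fibroblasts, where 1.78% of all genes did, with 3 members at an unadjusted p under 0.05 in edgeR and 1 member called by DESeq2. Hearts gave no call between 4 and 14 weeks, where 1.61% of all genes passed, with 4 members at an unadjusted p under 0.05 and 1 called by DESeq2. Between 14 weeks and 1 year no member passed in hearts, 0.972% of all genes did, 0 members were at an unadjusted p under 0.05 and DESeq2 called 0. Scaling by library size alone moved the median of all genes in hearts at 4 weeks from -0.09 to -0.60 on the log2 scale, and the share of called genes that were higher from 66.5% to 20.5%. At 1.5 years it moved the median from -0.15 to -0.75 and that share from 48.9% to 18.8%. In fibroblasts at 1.5 years the median moved from 0 to -0.15 and the share from 60.4% to 42.4%. Member changes in hearts under that scaling have to be read against those medians.

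Levels can be set between genes only per length, here that of the merged exons of all annotated transcripts. This is 16642 bases for Dnmt3a, 16870 for Tet2 and 7377 for Dnmt1, where the longest transcript has 9685, 9179 and 5870. The order of the genes rests on this choice and was not worked out with the longest transcript. In CPM per kilobase of exon, P1 fibroblasts had Dnmt1 at 11.7 ± 2.14 (SD, n = 3), Dnmt3a at 11.3 ± 1.33, Tet3 at 8.48 ± 0.426 and Uhrf1 at 8.02 ± 2.34, followed by Tet2 at 3.28 ± 0.271, Tet1 at 2.13 ± 0.785, Hells at 1.90 ± 0.708 and Dnmt3b at 1.40 ± 0.575. Dnmt1 overlapped Dnmt3a, Tet3 overlapped Uhrf1, and Tet1, Hells and Dnmt3b overlapped their neighbours in this order. At 1.5 years Dnmt1 at 4.21 CPM per kilobase was followed by Dnmt3a at 2.65, Tet3 at 2.51 and Tet2 at 2.30, and Uhrf1, at 0.421, was seventh of the 8. Hearts at P1 had Dnmt3a at 5.62, Dnmt1 at 5.61 and Uhrf1 at 4.46 CPM per kilobase, and at 1.5 years Dnmt1 at 2.72 and Dnmt3a at 1.57, with Tet1 last at 0.0753. At 1.5 years in fibroblasts Dnmt3a overlapped Tet3, which overlapped Tet2, and at 14 weeks Dnmt3a, at 2.70 CPM per kilobase, stood below Tet3 at 4.44 and Tet2 at 3.18 as well as below Dnmt1.

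The make-up of the TET transcripts per kilobase was also compared between P1 and the older ages. In fibroblasts Tet3 made up 61.2% ± 5.40 (SD, n = 3) of the 3 genes at P1 and 53.2% ± 5.45 (SD, n = 9) later, and Tet2 23.6% ± 1.02 (SD, n = 3) at P1 and 35.5% ± 5.43 (SD, n = 9) later. The P1 shares of Tet2, from 22.6% to 24.6%, lay below the lowest older one of 29.2%. The higher mean Tet2 share had p = 0.00909 in a two-sided exact permutation test, the smallest that 3 against 9 samples allow, and an adjusted p of 0.145 over the 16 share tests made in both tissues. For Tet3 the test gave p = 0.0545 (exact permutation). In hearts Tet1 made up 16.6% ± 1.59 (SD, n = 3) at P1 and 10.6% ± 4.19 (SD, n = 12) later (exact permutation p = 0.044, adjusted p = 0.267). The Tet2 share of hearts was 41.6% ± 2.96 (SD, n = 3) at P1 and 42.9% ± 12.7 (SD, n = 12) later. No share passed after adjustment, which says little. The 16 tests included those of P1 against 4 weeks, where 3 against 3 samples allow no p under 0.1.

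**Figure D3:**
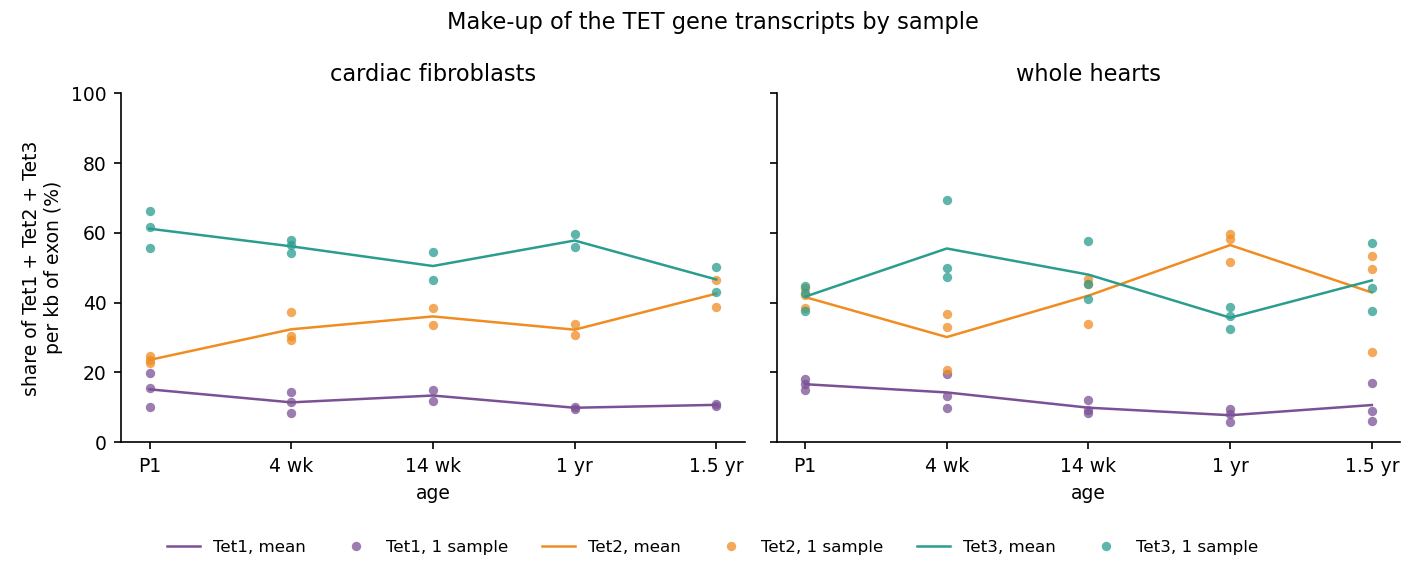
Share of Tet1, Tet2 and Tet3 in their summed counts per kilobase of exon (y axis, percent) by age (x axis), with a point for each sample and a line through the means. In fibroblasts the Tet2 share is 23.6% on average at postnatal day 1 and 35.5% at the older ages.

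Compared at the same age in a joint fit of the 27 samples, Tet3 was higher in fibroblasts than in hearts at all 5 ages. Its mean level in this fit was 124, 103, 63.7, 48.5 and 37.0 CPM in fibroblasts from P1 to 1.5 years and 53.5, 35.9, 22.7, 19.6 and 7.06 CPM in hearts. At each age the ranges of the tissues did not overlap. The log2 difference was 1.22 at P1 (SE 0.315, adjusted p = 0.0039 by edgeR) and 2.39 at 1.5 years (SE 0.350, adjusted p = 5.02e-06). In between it was 1.53 (SE 0.317, 4 weeks), 1.49 (SE 0.344, 14 weeks) and 1.30 (SE 0.344, 1 year). With the length offset the difference was 0.43 at P1 (adjusted p = 0.219) and 0.69 at 1 year (adjusted p = 0.0782), so those calls were lost. The calls that held had smaller differences, 0.79 at 4 weeks, 0.77 at 14 weeks and 1.197 at 1.5 years.

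In all, 3 of 8 members were higher in fibroblasts at P1, where 13.6% of all genes were. The count was 2 of 8 in 4-week samples (17.5% of all genes), 3 of 8 in 14-week samples (17.1%), 2 of 8 after 1 year (16.7%) and 3 of 8 after 1.5 years (21%). No member passed as higher in hearts in this fit, where 18.7%, 18.6%, 17.7%, 15.7% and 17.9% of all genes were higher at the 5 ages in turn. Dnmt1 passed at P1 (log2 difference 0.72, adjusted p = 0.0446 by edgeR), 14 weeks (1.01, adjusted p = 0.00889) and 1 year (1.15, adjusted p = 0.00344), and Dnmt3a at P1 (0.67, adjusted p = 0.0213). The P1 calls were not firm, since without heart replicate 1 the adjusted p was 0.225 for Dnmt1 and 0.088 for Dnmt3a. That of Dnmt1 was lost also without fibroblast replicate 1 or 2 or heart replicate 2, and that of Dnmt3a without fibroblast replicate 3. The offset for length ended the 3 P1 calls and turned Dnmt3a to -0.13. It also ended those of Dnmt1 at 14 weeks (0.66, adjusted p = 0.107) and 1 year (0.77, adjusted p = 0.057). Dnmt1 at 14 weeks was lost without fibroblast replicate 6 (adjusted p = 0.0553).

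The direction of Dnmt3a between the tissues depended on the method from 14 weeks on. The log2 difference (edgeR) did not pass at 14 weeks (-0.52), 1 year (-0.33) or 1.5 years (0.39). With the length offset it was lower in fibroblasts at all 3 ages, at -1.24 (adjusted p = 6.28e-05), -0.95 (adjusted p = 0.00111) and -0.81 (adjusted p = 0.00394) in turn. At 14 weeks it was also called lower by DESeq2, with the filter of at least 10 counts in every sample and in a fit of the 2 groups alone. At 1.5 years, scaling by library size alone called it higher (0.73, adjusted p = 0.0212), as did the fit without heart replicate 1 of that age (0.83, adjusted p = 0.00206).

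For Tet1 and Tet2 the largest tissue difference was at 1.5 years. Tet1 was 29.0 ± 10.6 CPM (SD, n = 3) in fibroblasts and 19.9 ± 4.98 CPM (SD, n = 3) in hearts at P1, and 7.88 ± 0.156 (SD, n = 2) and 1.33 ± 0.777 CPM (SD, n = 3) at 1.5 years. Its log2 difference passed at 14 weeks (1.86, SE 0.482, adjusted p = 0.0034 by edgeR) and at 1.5 years (2.57, SE 0.493, adjusted p = 0.00015). Tet2 was 48.6 ± 3.94 CPM (SD, n = 3) in fibroblasts and 53.8 ± 9.02 CPM (SD, n = 3) in hearts at P1, and 34.2 ± 4.95 (SD, n = 2) and 8.41 ± 6.67 CPM (SD, n = 3) at 1.5 years. It passed at 4 weeks (1.45, SE 0.506, adjusted p = 0.027) and at 1.5 years (2.03, SE 0.553, adjusted p = 0.00472). The 4-week call of Tet2 was lost without fibroblast replicate 1 or 3 or heart replicate 2 (adjusted p up to 0.0973) and with the length offset (adjusted p = 0.156). The offset also ended the 1.5-year call of Tet2 (0.86, adjusted p = 0.159). A fit of the 2 groups alone ended the 1.5-year calls of Tet1 (adjusted p = 0.0524) and Tet2. The offset left the 1.5-year difference of Tet1 at 1.44.

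**Figure D4:**
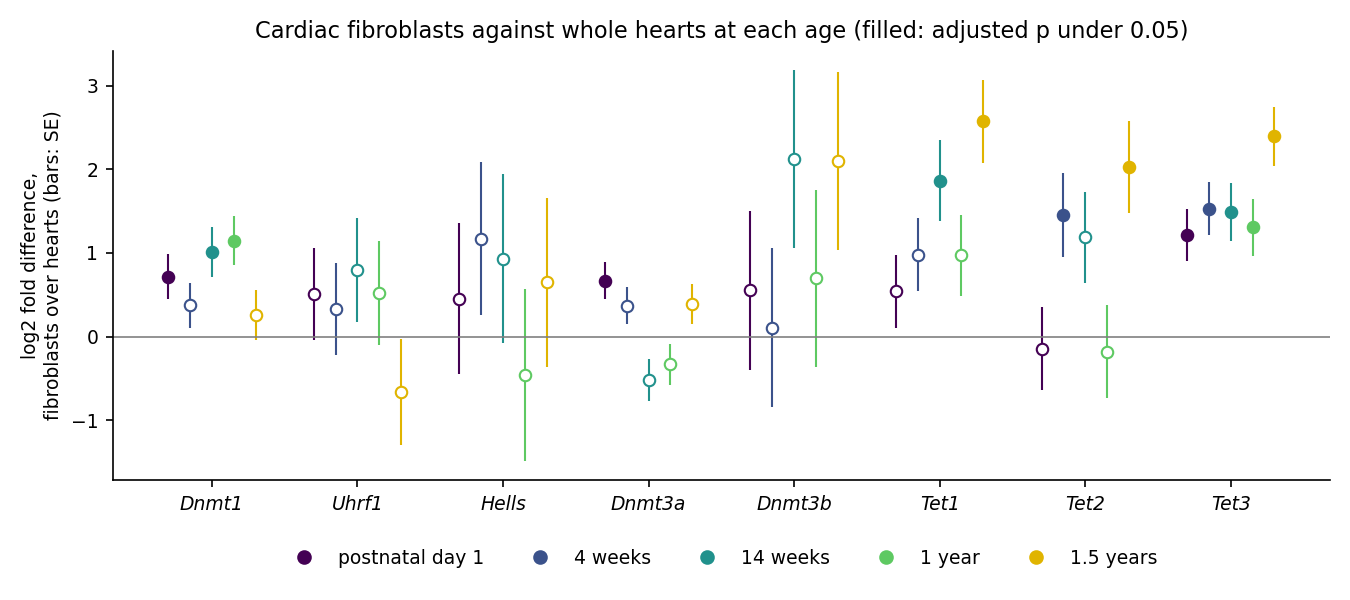
Log2 fold difference of fibroblasts over hearts (y axis, bars for 1 SE) for each gene (x axis), with the 5 ages as colours from left to right, from the joint fit, with filled points for an adjusted p under 0.05. Tet3 passes at every age, and Tet1, Tet2 and Tet3 lie between 2.03 and 2.57 at 1.5 years, where the length offset gave 1.44, 0.86 and 1.197.

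An interaction term of the joint fit tested whether fibroblasts and hearts had changed by different amounts since P1. At 4 weeks no member passed, beside 7.14% of all genes, with 1 member at an unadjusted p under 0.05 in edgeR and 0 called by DESeq2. At 1.5 years 1 of the 8 passed, beside 13.6% of all genes. This was Tet1, which fell less in fibroblasts than in hearts by 2.03 on the log2 scale (SE 0.652, adjusted p = 0.0398 by edgeR). The fibroblast change runs across the step in replicate numbers, so age and set cannot be told apart in it. Tet2 differed by 2.17 (SE 0.743, adjusted p = 0.0543) and Tet3 by 1.18 (SE 0.466, adjusted p = 0.0983), where the median over all genes was 0.32. The Tet1 call was lost in 8 of 11 leave-outs (adjusted p up to 0.122), among them P1 replicates 2 and 3 and the 1.5-year replicates 2 and 3 of the hearts. It was also lost with 3 of 6 other settings.

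The replication genes moved in the same direction. Of 26 genes of DNA replication and the cell cycle, 13 were lower at 4 weeks than at P1 in fibroblasts (median log2 fold change -1.95), 21 at 1.5 years (median -2.93), and 13 and 22 in hearts (medians -1.88 and -2.49), with none higher. Mki67, a marker of cycling cells, averaged 205, 47.8, 6.45, 2.18 and 4.09 CPM in fibroblasts from the youngest age to the oldest, and 71.3, 18.5, 4.87, 4.26 and 1.66 CPM in hearts. Pcna, the clamp that Dnmt1 binds at the fork, did not follow this course, at 49.7, 45.6, 48.2, 28.8 and 58.3 CPM in fibroblasts.

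Set against the summed counts of the replicative helicase genes Mcm2 to Mcm7, the difference of the older ages from P1 was negative for some members and positive for others. The log2 ratio of Uhrf1 was -3.06 ± 0.263 (SD, n = 3) in P1 fibroblasts and -5.21 ± 1.06 (SD, n = 9) later, a difference of -2.14 (two-sided exact permutation p = 0.00909, adjusted p = 0.097 over 32 tests). With Pcna in place of the helicase genes it was -3.35. In hearts it was -3.41 ± 0.724 (SD, n = 3) and -4.88 ± 0.963 (SD, n = 12) later (exact permutation p = 0.0264, adjusted p = 0.211). The ratio of Dnmt1 was -1.71 ± 0.0627 (SD, n = 3) in P1 fibroblasts and -1.30 ± 0.275 (SD, n = 9) later, and -2.06 ± 0.139 (SD, n = 3) and -1.26 ± 0.305 (SD, n = 12) in hearts (exact permutation p = 0.0044 in hearts, adjusted p = 0.097). The Tet2 ratio in fibroblasts was -2.33 ± 0.164 (SD, n = 3) at P1 and -1.15 ± 0.556 (SD, n = 9) later (exact permutation p = 0.00909, adjusted p = 0.097). The Dnmt1 and Tet2 differences changed sign with Pcna as the reference, and no ratio passed after adjustment. The 32 tests included those of P1 against 4 weeks, where 3 against 3 samples allow no p under 0.1. The adjustment thus left little room for a ratio to pass.

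**Figure D5:**
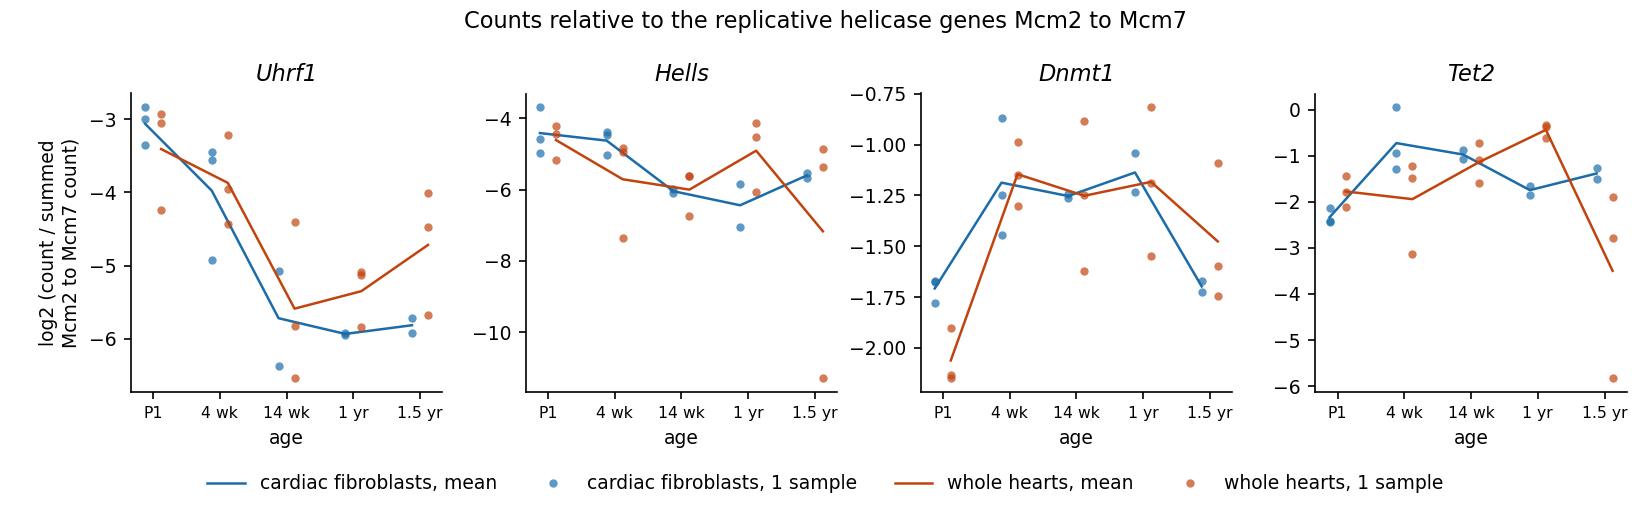
Log2 ratio of the counts of Uhrf1, Hells, Dnmt1 and Tet2 to the summed count of Mcm2 to Mcm7 (y axis, a scale of its own in each panel) by age (x axis), with a point for each sample of fibroblasts and hearts and lines through the means. In fibroblasts the Uhrf1 ratio averages -3.06 at postnatal day 1 and -5.21 at the older ages.

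Other genes of the pathway were taken in lists, whose counts are read beside the share of all genes. At 4 weeks 9.28% of all genes were higher and 6.2% lower in fibroblasts, and 12.1% and 6.1% in hearts, and at 1.5 years 9.86% and 6.46% in fibroblasts and 15.6% and 16.3% in hearts. Of 10 maintenance partners, among them Usp7, Lig1 and the clamp-associated Pclaf, 3 were lower in fibroblasts at 4 weeks and 3 at 1.5 years, and 1 and 5 in hearts, with none higher. Pclaf, which marks replicating chromatin, fell by 2.70 on the log2 scale in fibroblasts at 4 weeks (SE 0.816, adjusted p = 0.0411 by edgeR) and by 3.38 in hearts at 1.5 years (SE 0.994, adjusted p = 0.0161). Of 9 tested genes of the DNMT family and imprint factors, 3 and 5 were lower in fibroblasts at 4 weeks and 1.5 years, and 2 and 5 in hearts, and again none was higher. Zfp57, which protects methylated imprints, fell by 3.16 in fibroblasts at 4 weeks (SE 0.820, adjusted p = 0.0192) and by 2.47 in hearts (SE 0.827, adjusted p = 0.0484).

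The readers of methylated CpG held calls in both directions. Of 9, 2 were higher in fibroblasts at 4 weeks and 3 at 1.5 years, and 1 was lower at 1.5 years, while in hearts 3 were higher at 4 weeks, and 3 were higher and 3 lower at 1.5 years. Zbtb4, a zinc-finger protein that binds methylated CpG, was 1.24 higher on the log2 scale in fibroblasts at 4 weeks (SE 0.166, adjusted p = 0.000234 by edgeR) and 1.73 higher at 1.5 years (SE 0.181, adjusted p = 2.46e-05). In hearts it was 0.83 higher at 4 weeks (SE 0.206, adjusted p = 0.00931). The median over the 9 readers at 1.5 years was 0.07 in fibroblasts and -0.49 in hearts.

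Of 16 TET partners and base excision repair genes, 4 were higher and 4 lower in fibroblasts at 4 weeks, and 4 and 5 at 1.5 years, against 1 and 2, then 2 and 6, in hearts. The 2 of 16 higher in 1.5-year hearts are near the share of all genes. Tdg, the glycosylase that excises the oxidised bases made by TET enzymes, fell the most of them in fibroblasts at 1.5 years (log2 fold change -1.64, SE 0.364, adjusted p = 0.00763 by edgeR). Gadd45g, linked to repair-based demethylation, rose the most (1.93, adjusted p = 0.000295). Of 12 genes of methyl donor synthesis the lowest adjusted p in fibroblasts over both ages was 0.0712 (Mat2a, edgeR; medians -0.20 at 4 weeks and -0.14 at 1.5 years), and in hearts 1 was higher and 2 lower at 4 weeks and 1 higher and 3 lower at 1.5 years. Of 8 enzymes that make or use 2-oxoglutarate, the cosubstrate of TET enzymes, 1 was lower in fibroblasts at both ages, Idh2 (log2 fold change -1.83 at 4 weeks, SE 0.126, adjusted p = 9.47e-07 by edgeR), and in hearts 5 were higher at 4 weeks and 7 at 1.5 years. The difference between the tissues was not tested for the list. The leading riser in hearts was Ogdh, of the citric acid cycle (log2 fold change 2.00 at 4 weeks, SE 0.147, adjusted p = 7.99e-08).

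The genes whose levels were most like those of each member over the samples of a tissue are given as a description, since all samples share the 5 ages. Over the 12 fibroblast samples, Dnmt3a was nearest to the mitotic genes Tpx2 (Pearson r of log2 CPM 0.982), Ccnb2 and Cdca8, and Hells to the kinesins Kif23 (r = 0.958) and Kif11. Uhrf1 was nearest to Col26a1 (r = 0.990) and Tet3 to Ncaph (r = 0.963), a condensin subunit. Tet2 was nearest to Arglu1 (r = 0.942), and its r with Mki67 was 0.691, where that of Dnmt3a was 0.960. Dnmt1 was nearest to Amer1 (r = 0.969), Tet1 to Irs1 (r = 0.951) and Dnmt3b to Anp32a (r = 0.919). The r of Dnmt3b with Mki67 was 0.448. Over the 15 hearts, Dnmt3a and Tet1 were each nearest to the other (r = 0.962), and Uhrf1 to the mitotic kinase gene Aurkb (r = 0.940). Dnmt1 was nearest to Cdca5 (r = 0.926), Hells to Etaa1 (r = 0.919) and Dnmt3b to Gpkow (r = 0.953). Tet2 was nearest to Casp8ap2 (r = 0.975) and Tet3 to Tcf12 (r = 0.970). In hearts the r with Mki67 was 0.646 for Uhrf1 and 0.531 for Hells.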

How the data were processed

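RNA-Seq of polyadenylated RNA (single-end reads of 65 bp) was mapped by the authors to mm10 with STAR 2.5.3a, per the labels and the submitters' processing notes, and the deposited values are raw counts per gene. The annotation and the strand setting used for counting were not given in the sources used here. Counts were fitted per tissue, and in a joint fit for tissue differences, with edgeR 4.0.16 (limma 3.58.1, R 4.3.3): filterByExpr, TMM scaling, quasi-likelihood F tests and Benjamini-Hochberg adjustment over all genes tested (18759 in fibroblasts, 17995 in hearts, 20650 jointly), threshold 0.05. SEs were derived from the fold change and the F statistic. Levels are TMM-scaled CPM. Shares used counts per exonic length and ratios a pseudocount of 0.5, with exact permutation tests in Python 3.11.15 (scipy 1.17.1). The members and gene lists were chosen with earlier results of these data known. All 8 members are named; of the lists, the largest riser or faller past the threshold may be named, and the genes most correlated with each member. Alternatives were DESeq2 1.42.0, other scaling, filters, a length offset, fits on 2 groups, a replicate block and leaving out samples. The code was run on simulated data with known answers, which says nothing of these samples. Exonic lengths, of the merged exons of all transcripts of a gene, were found for 95.4% of genes. No deposited column of sample values was left out.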

Additional observations from a re-analysis of the deposited data

Results flagged for a closer look

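The change of Tet1 from P1 to 1.5 years differed between the tissues by the test of the difference itself, with a log2 fold change 2.03 higher in cardiac fibroblasts than in whole hearts (SE 0.652, adjusted p = 0.0398 by edgeR). Tet1 fell in both tissues, by 1.88 on the log2 scale in fibroblasts and by 3.94 in hearts. The median of this difference over all genes was 0.32. Tet1 was 1 of the 8 members to pass, beside 13.6% of all genes, so the count is near that share. The Tet1 call was lost in 8 of 11 leave-outs (adjusted p up to 0.1215) and in 3 of 6 other settings, the length offset among them. In 1.5-year hearts its counts were as low as 36. The fibroblast samples of P1 and of 1.5 years are of different replicate sets, which cannot be told apart from age. The cause was not tested.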

How the results depend on the processing

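Of the 57 printed log2 fold changes, the calls of Uhrf1, Dnmt3a, Tet1 and Tet3 between P1 and 1.5 years held in both tissues in every setting and leave-out that was run, as did Dnmt1 in fibroblasts and Tet2 in hearts. Over all settings, 372 values kept direction and side of the threshold, 27 lost a call, 22 gained one and 4 changed sign, all Dnmt3a in fibroblasts against hearts. With the offset for exonic length that difference was -0.125 at P1 and -0.812 at 1.5 years, the latter past the threshold, and with library size as the only scaling it was 0.154 at 14 weeks and 0.0243 at 1 year. With DESeq2 the number of members called was 4 in place of 2 in fibroblasts from 4 to 14 weeks, 1 in place of 0 in fibroblasts from 14 weeks to 1 year, 1 in place of 0 in hearts from 4 to 14 weeks and 2 in place of 1 in the 1.5-year difference between tissues. With library size as the only scaling it was 1 in place of 2 in fibroblasts from 4 to 14 weeks, 6 in place of 1 in hearts at 4 weeks against P1, 1 in place of 0 in hearts from 4 to 14 weeks, 5 in place of 2 and 5 in place of 3 for fibroblasts against hearts at 4 and 14 weeks, and 3 in place of 1 in the 1.5-year difference. Fitting only the 2 groups compared gave 1 in place of 2 in fibroblasts from 4 to 14 weeks, 2 in place of 0 from 14 weeks to 1 year, 1 in place of 3 in hearts from 14 weeks to 1.5 years, and 6 in place of 3 and 1 in place of 3 for fibroblasts against hearts at 14 weeks and 1.5 years. The length offset gave 0 in place of 1 in fibroblasts and 1 in place of 3 in hearts from 14 weeks to 1.5 years, and 0 in place of 3, 1 in place of 2 and 1 in place of 2 for fibroblasts against hearts at P1, 4 weeks and 1 year. The 1 at 1 year was Dnmt3a, lower in fibroblasts, and at 14 weeks and 1.5 years the offset kept 3 calls with Dnmt3a, lower, in place of another member. The 1.5-year difference held 0 calls with the length offset, with median-of-ratios scaling and without a filter, and 2 with at least 10 counts in every sample, a filter that also gave 1 in place of 0 in hearts from 4 to 14 weeks and no value for Dnmt3b and Hells in hearts. The causes of these moves were not tested.

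Leaving out 1 sample at a time, members called ranged from 0 to 2 in fibroblasts from 4 to 14 weeks, were 0 each time from 14 weeks to 1.5 years, and in hearts ranged from 0 to 1 at 4 weeks against P1 and from 1 to 4 from 14 weeks to 1.5 years. For fibroblasts against hearts they ranged from 1 to 3 at P1 and at 4 weeks, and for the 1.5-year difference from 0 to 3. The difference in the Tet2 share of hearts ranged from -0.324 to 3.32 percentage points around 1.29. With Pcna in place of Mcm2 to Mcm7, the ratio differences were -0.806 for Dnmt1 and -0.0301 for Tet2 in fibroblasts and -0.439 for Dnmt1 in hearts.

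Samples with the same replicate number did not deviate together, with r between -0.0556 and 0.0947 over 30 pairs of hearts of different ages. For fibroblasts and hearts of the same age, r was between -0.0343 and 0.0171 over 6 pairs. The paper sequenced fibroblasts and their hearts of origin, so some samples of the tissues may share an animal. The labels do not say which, and a low r does not decide it. The joint fit took all samples as independent. A replicate block gave 0 in place of 1 member called in hearts at 4 weeks against P1 and 1 in place of 0 in the 4-week difference between tissues, and moved the genes called in fibroblasts at 4 weeks from 2903 to 1770. No such fit could be made for fibroblasts from 4 to 14 weeks or from P1 to 1.5 years, as those ages share no replicate number.

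Over all genes, DESeq2 called 5856 in place of 3731 among the 5 ages in fibroblasts, 1660 in place of 726 from 4 to 14 weeks and 3547 in place of 2298 in hearts from 14 weeks to 1.5 years, where the length offset left 1268. Low counts of Hells and Dnmt3b in old hearts limit what can be read for them.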
